A study of Rattus norvegicus with 4 samples.

Results

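The beta-catenin destruction complex and its TCF partners were followed in the superficial zone (SFZ) and the deeper layers (deep AC) of rat articular cartilage, through 10 genes out of 31007 gene rows. The genes were the rows whose symbol is Apc, Apc2, Axin1, Axin2, Ctnnb1, Gsk3b, Dvl1, Lef1, Tcf7 or Tcf7l2, and each was found on a single row. They were chosen with their within-rat difference SFZ minus deep AC already known, so that difference is given as a description and no test of it is made for them. The cartilage came from the proximal tibia of 2 Sprague-Dawley rats aged 10 weeks, for which the labels give no treatment and no sex. The SFZ at the joint surface and the deep AC under it were cut out separately by laser microdissection, and messenger RNA was amplified linearly before sequencing, which gave 2 SFZ libraries and 2 deep AC libraries, 1 of each zone from each rat.

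Beta-catenin, the product of Ctnnb1, carries the canonical WNT signal into the nucleus and also binds cadherins at the cell membrane. Without WNT, the scaffolds encoded by Axin1, Axin2, Apc and Apc2 hold beta-catenin for phosphorylation by casein kinase 1 and by the kinase encoded by Gsk3b, after which it is ubiquitinated and degraded. With WNT, the Dishevelled protein encoded by Dvl1 draws Axin to the receptors, beta-catenin builds up and binds the DNA-binding factors encoded by Lef1, Tcf7 and Tcf7l2. Axin2 is itself a widely used target of that signal, which makes it a negative feedback gene. In mice, both gain and loss of beta-catenin activity in chondrocytes damage articular cartilage.

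The promoter windows of RefSeq, 300 bases long with 250 before and 50 after the gene start, were available for 9 of the 10 genes on build GRCr8. In the Apc2 window the 50 bases after that start begin with ATG. Whether the start used for each gene is where transcription begins was not tested, so the windows may not hold the promoters. Those of Axin2 and Tcf7 are printed because they alone among the 9 held a TCF-type heptamer, CTTTGAA or CTTTGAT, and that of Apc2 because Apc2 had the largest zone difference of the 10 genes. Each reads 5′ to 3′ on the gene's strand, and capitals mark the heptamers. Axin2 lies at chr10:94398535-94398834 on the plus strand, Tcf7 at chr10:36954230-36954529 on the minus strand and Apc2 at chr7:10059296-10059595 on the minus strand.
Axin2: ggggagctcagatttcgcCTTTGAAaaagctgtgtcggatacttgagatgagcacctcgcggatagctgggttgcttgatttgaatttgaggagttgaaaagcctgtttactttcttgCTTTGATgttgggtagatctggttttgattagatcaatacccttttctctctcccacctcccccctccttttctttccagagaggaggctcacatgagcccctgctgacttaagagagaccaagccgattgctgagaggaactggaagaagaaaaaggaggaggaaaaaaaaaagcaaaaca
Tcf7: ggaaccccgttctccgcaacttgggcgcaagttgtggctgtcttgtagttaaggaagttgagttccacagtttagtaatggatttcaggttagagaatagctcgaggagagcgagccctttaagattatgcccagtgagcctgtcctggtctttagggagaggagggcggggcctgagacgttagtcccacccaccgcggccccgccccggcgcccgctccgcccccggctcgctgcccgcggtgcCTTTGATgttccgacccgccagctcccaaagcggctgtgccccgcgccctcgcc
Apc2: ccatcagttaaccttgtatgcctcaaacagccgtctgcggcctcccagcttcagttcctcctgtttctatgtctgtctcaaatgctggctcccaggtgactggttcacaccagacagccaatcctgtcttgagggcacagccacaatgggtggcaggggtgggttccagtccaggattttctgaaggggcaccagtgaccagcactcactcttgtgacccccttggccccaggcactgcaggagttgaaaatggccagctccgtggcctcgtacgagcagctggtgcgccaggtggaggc

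Both strands were searched for each heptamer. In the Axin2 window CTTTGAA began at base 19 and CTTTGAT at base 119, counted from 1 at the window's 5′ end, and in the Tcf7 window CTTTGAT began at base 247. At least 1 heptamer stood in 8.73% of all 33469 windows of that length, and at least 2 in 0.571%. The windows also differed widely in base composition. GC content ran from 34.7% in Gsk3b, through 44.3% in Apc, 45.7% in Axin2, 48.0% in Ctnnb1, 58.3% in Apc2, 62.7% in Tcf7, 64.7% in Lef1 and 70.3% in Tcf7l2, to 77.7% in Dvl1, against a median of 51.7% over all windows. The Dvl1 window held 49 CpG dinucleotides and the Apc window 4, where the median window held 7. A heptamer is a match of letters and was not tested as a binding site.

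The deposited values are on a log2 scale on which every row has a median of 0, so levels had been taken out and differences between libraries kept. Read numbers could be recovered for many rows, because the values before the log were whole reads times a constant of each library, with everything under 1 set to a floor of 1. An SFZ library at the floor had 0 reads or a fraction of 1, and a deep AC library at most 1. Over the rows with known reads, the 4 libraries held between 3013901 and 3395526 reads, and their total depth is unknown. The minimum level used here, 10 scaled reads on average across the libraries, was reached by 8696 rows. Over those rows the median SFZ minus deep AC was -0.12 in rat 1 and 0.00 in rat 2. Of these rows, 872 and 796 stood at the floor in the SFZ of rats 1 and 2, against 189 and 352 in their deep AC. The marker lists were chosen with earlier results of these data known, so they describe the tissue and cannot check the dissection. All 8 cartilage marker genes found in the table, Col2a1 and Acan among them, reached the minimum level. All 8 were lower in SFZ in both rats, 7 of them at least 2-fold, and of 7 superficial zone markers found, 6 were higher in SFZ in both rats. The part of this difference in the values that follow was not tested.

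Of the 10 genes, 6 reached the minimum level: Apc, Apc2, Axin1, Gsk3b, Dvl1 and Tcf7l2. Axin2 and Ctnnb1 had values under it, and Lef1 and Tcf7 were listed at 0 in all 4 libraries. Of all 31007 rows, 20218 were at 0 in all 4 libraries. 7 of the 8 genes with values were lower in SFZ than in deep AC in both rats and Apc went opposite ways in the rats. With quantile normalization, run for these genes over all 10789 rows with values, 5 of the 8 were lower in both. Among the 6 at the minimum level, 5 were lower in both rats, where 28.9% of the 8696 rows were, and 1 was at least 2-fold lower in both rats, where 11.9% of rows were. Over all 8696 rows, 561 were at least 2-fold higher and 1037 at least 2-fold lower in SFZ in both rats. With quantile normalization over these 8696 rows they were 838 and 722. Nothing is read from these shares, since the genes were chosen with this contrast known.

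**Figure D1:**
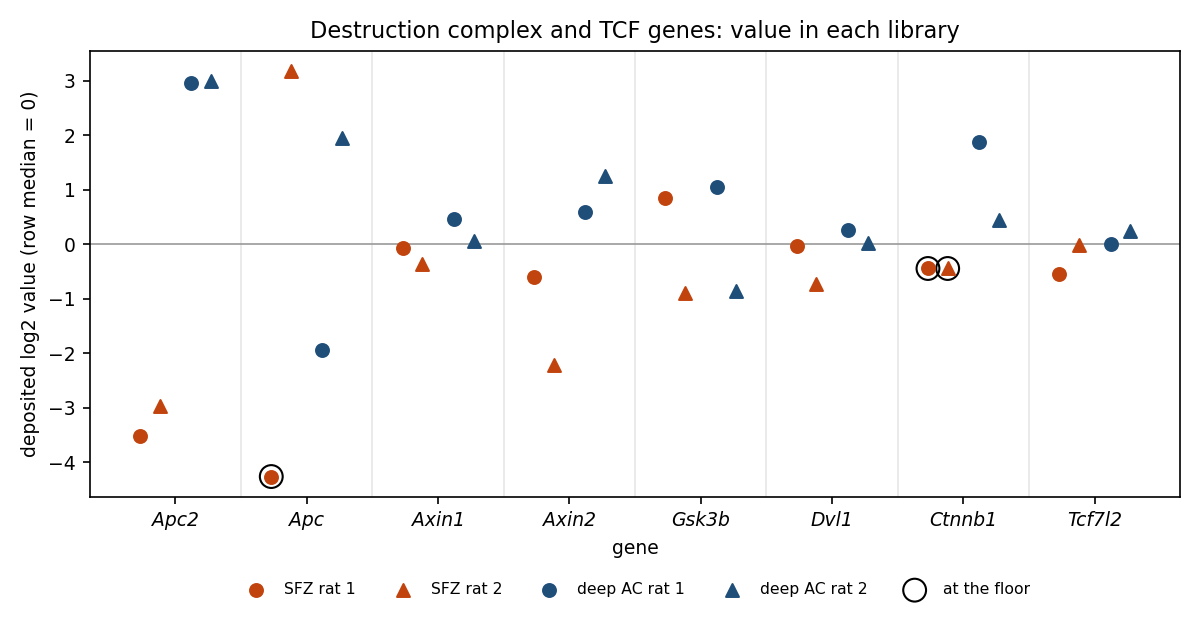
Deposited log2 value (vertical axis, row median set to 0) of the 8 genes with values, by gene along the horizontal axis; orange points are SFZ and blue points deep AC, circles are rat 1 and triangles rat 2, and open rings mark libraries at the floor. Both SFZ points lie far under both deep AC points for Apc2, while for Gsk3b and Apc the shapes (rats) part more than the colours (zones).

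Apc2, a paralogue of Apc that in mammals is known chiefly from the nervous system, was the gene with the large zone difference (Entrez 299611; rn4 chr7:10903675-10920010, minus strand). Its deposited log2 values were -3.51 in SFZ rat 1 and -2.96 in SFZ rat 2, against 2.96 in rat 1 deep AC and 3.01 in rat 2 deep AC. Both SFZ values were thus under both deep AC values, and the rats differed by little within either zone. SFZ minus deep AC was -6.48 in rat 1 and -5.97 in rat 2, a mean of -6.22 ± 0.36 (SD, n = 2 rats) on the log2 scale, or 89.0-fold and 62.6-fold lower in SFZ. By mean difference it was the 95th lowest of 8696 rows. Its reads were not whole numbers and could not be fixed. The binary places of the deposited values allow at most 10.8 scaled reads in SFZ rat 1 and 15.9 in SFZ rat 2, against 91.2 to 962 in deep AC rat 1 and 94.2 to 995 in deep AC rat 2. Its deep AC values alone carried Apc2 past the minimum level. With quantile normalization the mean difference was -5.14.

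The Apc2 row overlaps by 48 bases a neighbouring gene row on the opposite strand, RGD1359127, and the sources used here do not say whether reads were counted by strand. None of the other 9 genes overlapped another row. The RGD1359127 row went the other way, with deposited log2 values of 0.45 and 0.71 in the SFZ of rats 1 and 2, against -0.45 and -1.45 in their deep AC. In bulk samples, fewer cells of a type and less RNA per cell cannot be told apart. Of 10 neuron and Schwann cell markers, 9 were found; Stmn2 and Nefm were at 0 in all 4 libraries, Nefl and Syt1 had 3 and 4 reads in deep AC rat 1 alone, and of the 5 that reached the minimum level none was lower in SFZ in both rats. The 3 of these markers with known reads summed to 207 and 0 reads in the SFZ of rats 1 and 2, against 10 and 0 in their deep AC, and the 207 were all of Mbp. Of 9 osteoblast and osteocyte markers, 6 reached the minimum level and 4 of them were at least 2-fold lower in SFZ in both rats. Among these 4 were Ibsp at -8.75 and -10.27 and Alpl at -7.76 and -9.36. Col1a1 went the other way in both rats, at 7.16 and 2.27, and Phex stood at 0.65 and -5.24. Sp7 and Sost were at 0 in all 4 libraries. Over the 5 markers of this list with known reads, the sum was 1400 and 64 in the SFZ of rats 1 and 2. In their deep AC it was 753 and 133. Col1a1 gave 1113 and Phex 286 of the reads in SFZ rat 1, and Dmp1 gave 531 of those in deep AC rat 1. Ibsp and Alpl had no known reads and are not in the sums. The part of bone cells in the Apc2 difference was not tested.

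The 3 rows whose 4 deposited values lay nearest to those of Apc2, by Euclidean distance over the 4 libraries, were Cnksr1 on chromosome 5 (distance 0.41), Polrmt on chromosome 7 (0.44) and Ankrd23 on chromosome 9 (0.51). Cnksr1, which encodes a scaffold of Ras signalling, stood at -6.94 and -5.68 in rats 1 and 2. Polrmt, which encodes the mitochondrial RNA polymerase, stood at -6.42 and -5.88. Ankrd23, which encodes an ankyrin repeat protein of muscle, stood at -6.37 and -6.42.

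Apc, the main tumour suppressor scaffold of the complex, differed between the rats far more than between the zones (Entrez 24205; rn4 chr18:26732147-26790383, plus strand). It was at the floor in SFZ rat 1 and had 174 reads in SFZ rat 2, against 5 reads in rat 1 deep AC and 80 in rat 2 deep AC. Both libraries of rat 2 were high and both of rat 1 were at or near 0, so the zones overlapped. The zone difference was -2.32 in rat 1, set against the floor and resting on 5 reads, and 1.24 in rat 2, a mean of -0.54 ± 2.51 (SD, n = 2 rats). With quantile normalization over all 10789 rows with values the mean was 0.66, so its direction depends on the normalization. Rat 1 minus rat 2 was -7.44 in SFZ, set against the floor, and -3.89 in deep AC. Summed over the rats, SFZ held 67.2% of the Apc reads (exact 95% interval 61.1% to 72.9%, counting error only), a share that comes almost wholly from rat 2.

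Axin1, the scaffold around which the complex is built, varied little (Entrez 79257; rn4 chr10:15409374-15462726, plus strand). It had 346 reads in SFZ rat 1 and 288 in SFZ rat 2, against 518 in rat 1 deep AC and 423 in rat 2 deep AC. Reads of Axin1, Axin2, Gsk3b and Dvl1 came from a search for whole numbers and are known only up to a common factor. Such a factor leaves differences as they are but not the levels or the counting intervals. The place of Axin2 under the minimum level thus rests on the reads found. Reads of Usp7, Csnk1a1, Cdc73, Ccnd2, Jup, Cdh11, Ctnna1, Dmp1 and Col1a1 came from the same search. For Axin1, both SFZ libraries were under both deep AC libraries. The zone difference was -0.55 in rat 1 and -0.44 in rat 2, a mean of -0.49 ± 0.08 (SD, n = 2 rats), and -0.66 with quantile normalization. The mean lay among the 36.8% lowest of the 8696 rows.

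Axin2, the scaffold that is also a WNT target, was close to the limit of detection if the reads found are the true ones (Entrez 29134; rn4 chr10:98294466-98321828, plus strand). It had 3 reads in SFZ rat 1 and 1 in SFZ rat 2, against 7 in rat 1 deep AC and 12 in rat 2 deep AC. Both SFZ libraries were under both deep AC libraries, by few reads. SFZ minus deep AC was -1.19 in rat 1 and -3.47 in rat 2, a mean of -2.33 ± 1.61 (SD, n = 2 rats). The summed reads were 4 in SFZ and 19 in deep AC, which is a ratio of 0.222 after scaling, with an exact 95% interval of 0.0549 to 0.668 that covers counting error only. With quantile normalization over all 10789 rows with values the mean difference was 1.03, so the direction for Axin2 depends on the normalization. It is the only gene of the 9 whose promoter window, printed above, held 2 TCF-type heptamers.

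Gsk3b, the kinase that marks beta-catenin for degradation, followed the rat and not the zone (Entrez 84027; rn4 chr11:64284731-64428698, minus strand). It had 292 reads in SFZ rat 1 and 89 in SFZ rat 2, against 347 in rat 1 deep AC and 100 in rat 2 deep AC. Both libraries of rat 1 were high and both of rat 2 low, so the zones overlapped. The zone difference was -0.21 in rat 1 and -0.05 in rat 2, a mean of -0.13 ± 0.11 (SD, n = 2 rats), close to the median of -0.10 over all 8696 rows. With quantile normalization rat 2 stood at 0.17. Rat 1 minus rat 2 was 1.74 in SFZ and 1.91 in deep AC, or 3.35-fold and 3.75-fold higher in rat 1.

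Dvl1, the Dishevelled gene that relays the receptor signal to the complex, was modestly lower in SFZ in both rats (Entrez 83721; rn4 chr5:172705951-172717626, plus strand). It had 686 reads in SFZ rat 1 and 431 in SFZ rat 2, against 861 in rat 1 deep AC and 788 in rat 2 deep AC. Both SFZ libraries were under both deep AC libraries. SFZ minus deep AC was -0.29 in rat 1 and -0.75 in rat 2, a mean of -0.52 ± 0.33 (SD, n = 2 rats). Its paralogue Dvl3 was listed at 0 in all 4 libraries.

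Ctnnb1, which encodes beta-catenin itself, was read hardly at all (Entrez 84353; rn4 chr8:125978161-125987670, plus strand). It was at the floor in both SFZ libraries, against 5 reads in rat 1 deep AC and 2 in rat 2 deep AC. The summed reads were 0 in SFZ and 7 in deep AC, and the exact 95% interval of the scaled ratio reached up to 0.731, counting error only. The differences set against the floor were -2.32 in rat 1 and -0.88 in rat 2, a mean of -1.60 ± 1.01 (SD, n = 2 rats), and -0.30 with quantile normalization. The sources used here do not give the gene models or the mapping behind this row, and how far these reads reflect the level of Ctnnb1 RNA was not tested.

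Among the TCF factors, only Tcf7l2, one of the DNA-binding partners of beta-catenin, had values (Entrez 679869; rn4 chr1:262031823-262226709, plus strand). Its deposited log2 values were -0.54 in SFZ rat 1 and -0.01 in SFZ rat 2, against 0.01 in rat 1 deep AC and 0.24 in rat 2 deep AC. Both SFZ values were under both deep AC values, though SFZ rat 2 and deep AC rat 1 lay side by side. The zone difference was -0.55 in rat 1 and -0.25 in rat 2, a mean of -0.40 ± 0.21 (SD, n = 2 rats). Its reads could not be recovered. A further TCF gene, Tcf7l1, listed here with the nuclear cofactors, was not found in the table. Lef1 (Entrez 161452; rn4 chr2:228550263-228673131, plus strand) and Tcf7 (Entrez 363595; rn4 chr10:37686862-37716831, minus strand), the factors named for lymphoid and T cells, were listed at 0 in all 4 libraries, and whether they had no reads, were at the floor or were not counted is not known here.

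**Figure D2:**
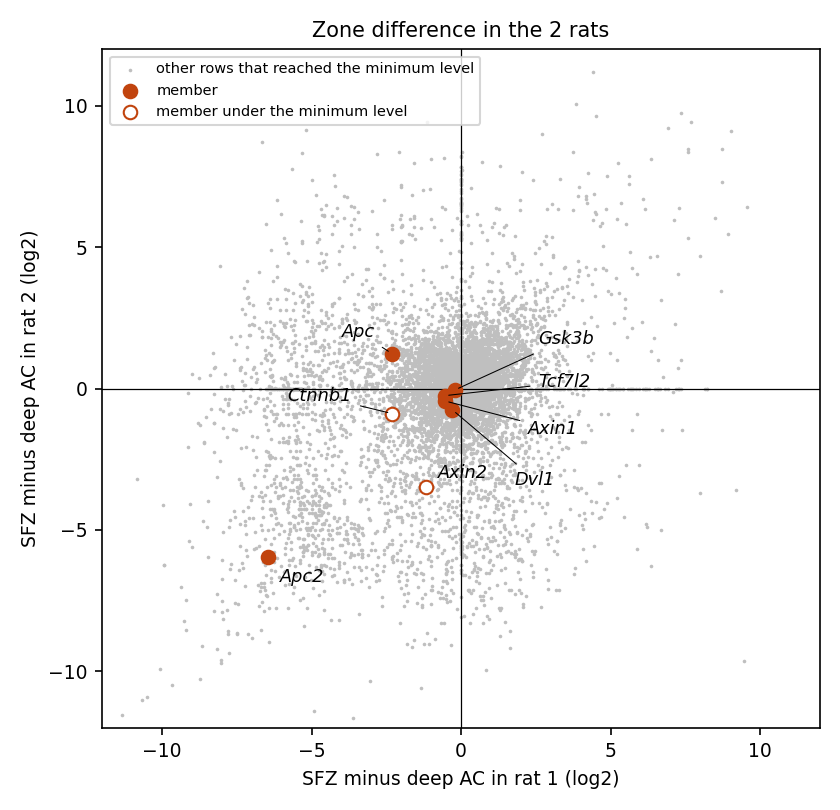
Zone difference, SFZ minus deep AC (log2), in rat 1 (horizontal) and rat 2 (vertical); grey points are the 8696 rows at the minimum level, filled orange points the 6 genes of the set among them and open points Axin2 and Ctnnb1, which were under it. Apc2 lies far from the origin at -6.48 and -5.97, Apc has opposite signs, and Axin1, Gsk3b, Dvl1 and Tcf7l2 lie within 2-fold of no difference in both rats.

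Axin1, Gsk3b, Dvl1 and Tcf7l2 were within 2-fold between the zones in both rats, as were 33.9% of all 8696 rows. Ordered by mean difference, the 8 genes with values ran from Apc2 at -6.22, Axin2 at -2.33 and Ctnnb1 at -1.60 to Apc at -0.54, Dvl1 at -0.52, Axin1 at -0.49, Tcf7l2 at -0.40 and Gsk3b at -0.13. The 4 genes from Apc to Tcf7l2 in that order were closer to each other than the SD of Dvl1 over the rats, and Axin2 and Ctnnb1 differed by less than the SD of either.

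The difference between the rats was not used to choose the genes and was looked at after their values had been seen. Apc and Gsk3b were at least 2-fold apart between the rats in the same direction in both zones, Apc lower and Gsk3b higher in rat 1. Of all 8696 rows, 3.51% were at least 2-fold lower and 4.84% at least 2-fold higher in rat 1 in both zones. In the limma fit with zone and rat as terms, the rat term gave Apc an adjusted p of 0.895 (unadjusted 0.0361) and Gsk3b an adjusted p of 0.895 (unadjusted 0.0948). Neither passed, and limma called 0 of 8696 rows (0%) for the rat, with 260 (2.99%) at an unadjusted p under 0.05. The other 4 genes at the minimum level were within 2-fold between the rats in both zones, from Apc2 at -0.55 in SFZ and -0.05 in deep AC to Dvl1 at 0.70 in SFZ and 0.24 in deep AC.

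**Figure D3:**
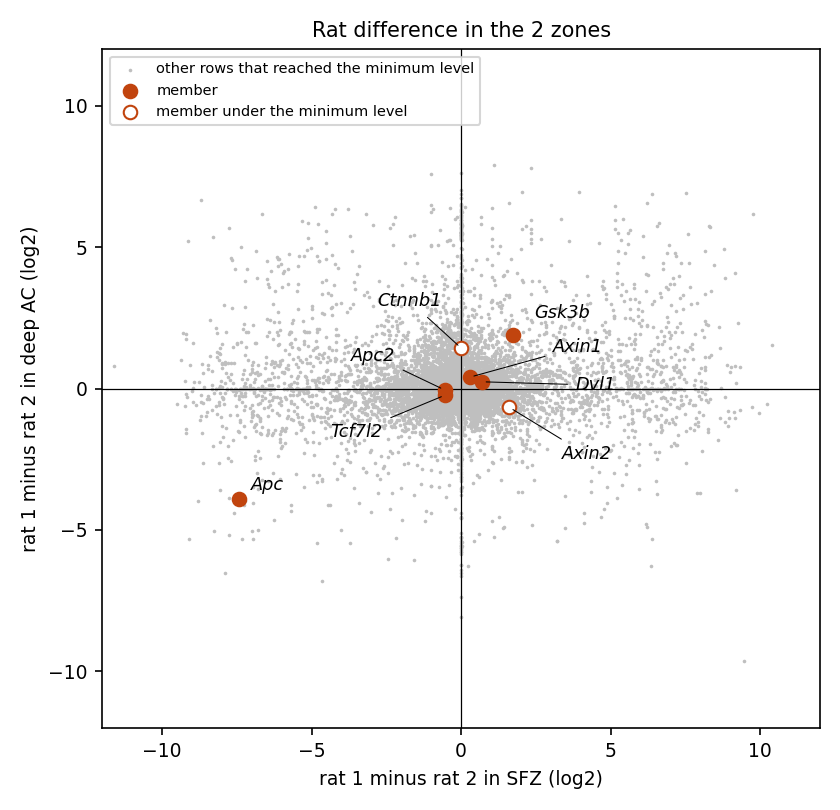
Rat 1 minus rat 2 on the log2 scale in SFZ (horizontal) and deep AC (vertical); grey points are the 8696 rows at the minimum level, filled orange points the 6 genes of the set among them and open points Axin2 and Ctnnb1. Apc lies far toward the lower left at -7.44 and -3.89, Gsk3b at 1.74 and 1.91, and the other filled points lie near the origin.

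The other genes of the pathway were grouped by role into 5 lists of 91 genes, of which 83 were found and 56 reached the minimum level. For SFZ against deep AC, limma called 16 of all 8696 rows (0.184%) at an adjusted p under 0.05, 8 higher (0.092%) and 8 lower (0.092%) in SFZ, and 0 of the 56 pathway genes. At an unadjusted p under 0.05 it had 7 of the 56 and 894 of all rows (10.3%). The lowest adjusted p of the 56 was 0.103. At least 2-fold in the same direction in both rats, 6 of the 56 were lower in SFZ (background 11.9%) and 3 were higher (background 6.45%).

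Of the 16 partners of the destruction complex, 12 reached the minimum level, 2 were at least 2-fold lower in SFZ in both rats and none was so much higher, with medians of 0.16 in rat 1 and 0.08 in rat 2. Btrc, which encodes the ubiquitin ligase adaptor that recognises phosphorylated beta-catenin, was at the floor in SFZ rat 1 and had 7 reads in SFZ rat 2, against 101 and 109 reads in deep AC rats 1 and 2 (-6.65 and -3.84; limma adjusted p = 0.483). Usp7, which encodes a deubiquitinase, had 10 and 28 SFZ reads against 63 and 154 deep AC reads (-2.62 and -2.34; limma adjusted p = 0.640). Fbxw11, the paralogue of Btrc, stood at -0.60 and -0.35, and the ligase scaffold gene Cul1 at 0.67 and 0.85. The casein kinase gene Csnk1a1 had 25 and 169 SFZ reads against 66 and 74 deep AC reads, so its zones overlapped. Gsk3a, the other GSK3 gene, was under the minimum level, with 7 reads in SFZ rat 1 and the floor in SFZ rat 2, against 10 and 20 reads in deep AC.

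Of 14 upstream transducers and feedback genes, 11 were found and 4 reached the minimum level, with medians of -3.91 in rat 1 and 0.09 in rat 2. Dact3, a Dishevelled-binding antagonist, had no SFZ library above the floor and had 161 and 78 deep AC reads (limma adjusted p = 0.392). Taking a count of 0 to allow 3 reads over the group, Dact3 was at least 76.6-fold lower in SFZ. That bound covers counting error only. Nkd1, another Dishevelled-binding feedback gene that is also in the target list, was under the minimum level, at the floor in both SFZ libraries against 22 and 16 reads in deep AC. Dact1 was at 0 in all 4 libraries.

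Of 26 nuclear cofactors of TCF, 21 reached the minimum level, and 1 was at least 2-fold higher in SFZ in both rats and none so much lower, with medians of 0.08 in rat 1 and 0.09 in rat 2. Cdc73, which encodes a subunit of the PAF1 complex, had 280 and 35 SFZ reads against 67 and 14 deep AC reads (2.10 and 1.44; limma adjusted p = 0.723). Tle1, a Groucho corepressor gene, stood at 0.23 and 2.23 (limma adjusted p = 0.576). Smarca4, a chromatin remodelling ATPase gene, stood at 0.95 and 0.85 and the corepressor gene Ctbp1 at 0.08 and 0.26. Pygo1, a beta-catenin coactivator gene under the minimum level, was at the floor in both SFZ libraries against 14 and 18 reads in deep AC.

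Of 26 canonical WNT target genes, 23 were found and 14 reached the minimum level; 2 were at least 2-fold lower in SFZ in both rats and none so much higher, with medians of -0.18 in rat 1 and 0.00 in rat 2. Dkk1, which encodes a secreted WNT antagonist, stood at -3.33 and -3.90 (limma adjusted p = 0.103). Wisp1, a matricellular CCN gene, had 279 reads in SFZ rat 1 and the floor in SFZ rat 2, against 1085 and 226 reads in deep AC (-1.92 and -7.70; limma adjusted p = 0.440). The cyclin gene Ccnd2 had 779 and 1072 SFZ reads against 472 and 479 deep AC reads (0.76 and 1.28; limma adjusted p = 0.526), whereas Ccnd1 stood at -0.73 and 0.03. Fst, which encodes follistatin, had 55 reads and 1 read in the SFZ of rats 1 and 2, against 9 reads and the floor in their deep AC (limma adjusted p = 0.886). Lgr5, Rnf43 and Sp5, further targets of the pathway, were at 0 in all 4 libraries.

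Of 10 catenin partners at the membrane, 5 reached the minimum level, and 2 were at least 2-fold higher and 1 at least 2-fold lower in SFZ in both rats, with medians of 1.19 in rat 1 and 0.73 in rat 2. Jup, which encodes plakoglobin, the closest relative of beta-catenin, had 560 and 656 SFZ reads against 54 and 91 deep AC reads (3.41 and 2.97; limma adjusted p = 0.325). Cdh13, a cadherin gene whose protein is held in the membrane by a lipid anchor, had deposited log2 values of 5.08 and 3.65 in the SFZ of rats 1 and 2, against the floor of -3.65 in the deep AC of either rat (limma adjusted p = 0.292). Cdh11, a mesenchymal cadherin gene, had 63 and 16 SFZ reads against 268 and 131 deep AC reads (-2.05 and -2.92; limma adjusted p = 0.557). Ctnna1, which encodes alpha-catenin, had 5053 and 4048 SFZ reads against 2278 and 2650 deep AC reads. Cdh5, the endothelial cadherin gene, was at 0 in all 4 libraries.

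**Figure D4:**
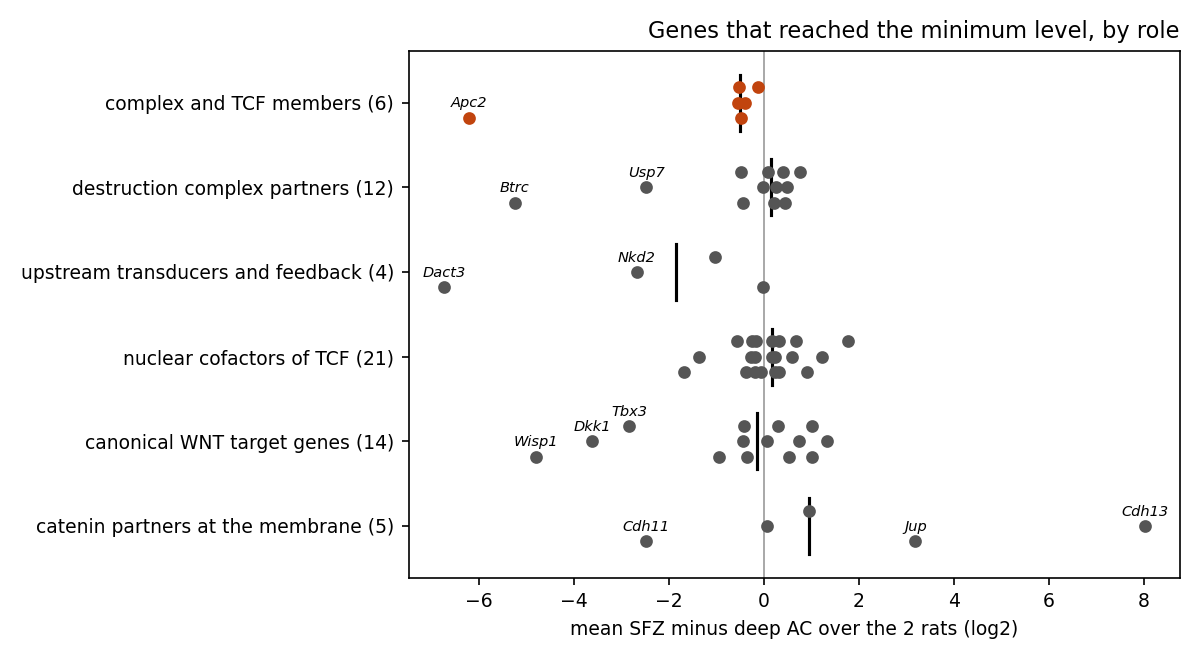
Mean SFZ minus deep AC over the 2 rats (log2, horizontal axis) for each gene that reached the minimum level, in rows by role with the number of genes in brackets; black bars are the row medians and genes with a mean of at least 2 in size are named. Most complex partners, nuclear cofactors and targets lie within 1 of 0. Apc2, Btrc, Dact3, Wisp1, Dkk1, Tbx3, Nkd2, Usp7 and Cdh11 lie on the left and Jup and Cdh13 on the right. The differences of Tbx3 and Nkd2 come from rat 1 alone, with rat 2 at 0.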

How the data were processed

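The authors deposited 1 table of log2 values with a column for each of the 4 libraries; its title names TMM scaling, per the file headers, and the submitters' processing notes name build rn4. The sources used here do not give the aligner, counter or gene models. Every row was centred on its own median. A constant per library, the scaled value of 1 read, was taken from the 1397 rows above 0 in a single library, where 94.0% to 96.7% of values were whole multiples to a relative tolerance of 1e-05. It was 1.02 and 1.00 for the SFZ of rats 1 and 2, and 0.996 and 0.923 for their deep AC. The floor fixed the level of 3375 rows, and a search for whole reads (relative tolerance 1.5e-06, at most 20000 reads in all) fixed 4948 more. Of the rest, 1390 took a level from the binary places of the values and 1076 only a bound. In simulated data made of whole reads only, 93.1% of 1588 resolved rows had exactly their true reads. The search itself keeps reads true up to a common factor, so the simulation could not test that part. Of the real rows without a floor value, 66.7% were resolved as whole reads. No separate figure was obtained for how often a row with fractional reads is fitted as whole.

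All tests across genes used limma 3.58.1 (R 4.3.3), fitted to all 8696 rows at the minimum level, with zone and rat as terms and a trended prior, on 1 residual degree of freedom; p-values are two-sided and adjusted by Benjamini-Hochberg over all rows. The fit was tested on simulated data. The recovered level, not the deposited value, sets the filter and the trend, so calls depend on it. The rat enters as a block, since each title names the animal and both zones came from it; across genes the difference between the rats in SFZ had a Pearson's r of 0.05 with that in deep AC, and genes are not independent. A ± is the SD over the rats. Single-gene intervals are exact binomial ones; amplified RNA gives many reads per molecule, so they cover counting error only.

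The members and lists were chosen with earlier results of these data known. Named genes were all 10 members, up to 6 genes per list with a mean difference of at least 1 and the same sign in both rats, the extremes of the marker lists and the 3 rows nearest to each member with a mean difference of at least 1 at the minimum level; the remaining named genes were picked with their values in view. The promoter search and the comparison of the rats were added after the data had been seen. Alternatives were another normalization, a pseudocount, other minimum levels, an untrended prior, no block, and leaving out each library or rat. Some genes of the marker lists are not reported here, and the counts leave them out. Markers of macrophages, endothelium and skeletal muscle were also listed: of 8, 5 and 9 found, 6, 1 and 3 reached the minimum level, and 1, 0 and 1 were at least 2-fold lower and 0, 0 and 0 at least 2-fold higher in SFZ in both rats.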

Additional observations from a re-analysis of the deposited data

How the results depend on the processing

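The number of genes that limma called for SFZ against deep AC depended strongly on the settings. Against 8 higher and 8 lower, there were 158 higher and 163 lower with quantile normalization, 0 and 2 with no minimum level, 3 and 4 with the minimum level raised to 100 scaled reads, 0 and 0 with an untrended prior, and 0 and 1 without the replicate block (the rat). Leaving out 1 library at a time, with no rat term, gave 0 to 0 higher and 0 to 71 lower, the 71 without deep AC rat 2 and 0 without any other library. Beside the 0 calls, limma gave at an unadjusted p under 0.05 222 higher and 655 lower with the untrended prior, 404 higher with no minimum level, 473 higher without the block, and 211 to 770 higher and 525 to 1425 lower with a library left out. The number of genes at least 2-fold lower in SFZ in both rats was 1037, and 360 with the raised minimum level; 1 added before the log and quantile normalization left it within 1.5 times. Quantile normalization moved the median of all rows to 0.01 in rat 1 and 0.03 in rat 2, against -0.12 and 0.00. That normalization was over the 8696 rows, while for the genes of the set it was run over all 10789 rows with values. There the mean difference was 0.66 for Apc and 1.03 for Axin2, both reversed. It was -5.14 for Apc2, -0.66 for Axin1 and -0.30 for Ctnnb1, and the cause was not tested. Leaving out a rat gave -2.32 to 1.24 for Apc. The mean differences of Gsk3b, Dvl1 and Tcf7l2 moved by less than 1 SD under quantile normalization and with 1 added before the log. Few reads limit Axin2 and Ctnnb1, and the 2 rats limit every difference.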

Other observations

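The marker genes at the ends of their lists are given here as SFZ minus deep AC in rats 1 and 2, on the log2 scale. Among superficial zone markers Clu, a secreted chaperone gene, stood at 4.43 and 6.89 (limma adjusted p = 0.0396), Thbs4 at 4.52 and 9.65, Erg at 2.13 and 2.40 and Cilp2 at 0.35 and 1.06. Among cartilage markers Matn3 stood at -9.94 and -6.23, Col9a2 at -3.38 and -2.69, Col11a1 at -1.38 and -1.38 and Chad at -0.84 and -0.15. Tnni2, a troponin gene in the muscle list, stood at -9.66 and -10.47 (limma adjusted p = 0.00105), while Acta1, Tnnt3 and Tnnc2 were at 0 in all 4 libraries. Ibsp, the bone sialoprotein gene, had a limma adjusted p of 0.0234.

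Some markers stood high in a single library. In SFZ rat 1, Col1a1 had 1113 reads, against 58 in SFZ rat 2 and 8 and 13 in the deep AC of rats 1 and 2. The complement genes C1qa and C1qb, which macrophages express, had 119 and 91 reads in SFZ rat 1 and were at the floor elsewhere, whereas Cd68 was at the floor in SFZ rat 1 and Ptprc stood at -2.03 and -1.02. Mbp had 207 reads in SFZ rat 1 and the floor in SFZ rat 2. Tubb3 stood at -0.82 and 3.33, Mapt at -2.30 and 3.01, S100b at 0.07 and 0.24, Phex at 0.65 and -5.24 and Myh2 at -4.78 and 5.76. Ckm had 96 reads in SFZ rat 2 and was at the floor in the other 3 libraries. Pecam1, the only endothelial marker at the minimum level, stood at -0.94 and 0.16. The part of these libraries in the differences of the 10 genes was not tested.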
